A study of Homo sapiens with 52 samples.

Results

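LGALS1, LGALS3, LGALS8 and LGALS9 encode the galectins 1, 3, 8 and 9, and LGALS3BP encodes a secreted protein that binds galectin-3. These 5 genes were taken by name from the 78894 genes of the deposited tables, and LGALS9 was followed further in its 16 transcripts of 387954. The genes were chosen by measured values. These were taken to be above all the level of LGALS9 after NRP1 knockdown in MDA-MB-231 cells, so that those values are a description and carry no test. Which values were used is not stated, so the tests of other values may not be independent of the choice. All 5 genes had reads in all 52 samples and passed the filter on low counts in all 3 cell lines. LGALS9 was the least abundant, with 2 to 3456 expected counts per sample, whereas LGALS1 had 13916 to 337607.

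The samples were SUM159PT, MDA-MB-231 and HS578T cells, 3 established human breast cancer lines of the claudin-low type, whose cells have few tight-junction claudins and carry mesenchymal genes. In each line NRP1, the gene of the co-receptor neuropilin-1, was lowered by RNA interference. One arm was transfection with 20 nM siRNA and harvest after 72 hrs, with the groups siNT (non-targeting), siNRP1#3 and siNRP1#5. The other was lentiviral shRNA with puromycin selection and harvest 48 hrs after seeding, with the groups shNT, shNRP1#3 and shNRP1#5. Per the study's methods, the #3 reagents target the transmembrane transcripts of NRP1 only, the #5 reagents also the soluble ones, siNRP1#5 and shNRP1#5 have the same sequence, and the 2 #3 reagents have different ones. Groups were of 3 samples, apart from the 2 samples each of HS578T shNRP1#3 and SUM159PT siNRP1#5. The shRNA replicates were consecutive passages of the transduced cells, and p-values here measure the spread between these samples only. Each cell line is 1 line, and the siNT and shNT arms differ in delivery, selection and harvest at once.

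Galectins are proteins that bind beta-galactoside sugars on glycoproteins and glycolipids. They lack a signal peptide, act both inside the cell and after export by a non-classical route, and link glycosylated receptors into lattices on the cell surface. LGALS1 is a prototype galectin that forms dimers and has been described as a ligand of neuropilin-1. LGALS3 is the chimera type, with a sugar-binding domain joined to a self-associating tail. LGALS8 and LGALS9 are tandem-repeat galectins, in which a linker joins a pair of sugar-binding domains. Galectin-8 recognises sugars exposed on damaged endosomes and recruits autophagy receptors, and galectin-9 is best known as a ligand of the T cell receptor TIM-3. LGALS9 and LGALS3BP are interferon-inducible in many cell types.

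On GRCh38, LGALS9 lies on the plus strand at chr17:27629798-27649560. LGALS3BP is on the minus strand of the same chromosome at chr17:78971238-78979947, LGALS1 at chr22:37675636-37679802, LGALS3 at chr14:55124110-55145423 and LGALS8 at chr1:236518000-236552981, the last 3 on the plus strand. The promoters are shown because 2 of these genes share a short element. In RefSeq promoter windows from 250 bases before to 50 bases after each start, 4 of the 5 genes had an entry, and the letters GAAA, then any 2 bases, then GAAA, searched on both strands as the core of the interferon-stimulated response element, occurred in LGALS9 and LGALS3BP. They occurred in 1255 of 35116 promoters (3.57%), in 14 of 18 promoters of a list of interferon-stimulated genes, and in 1 of 16 promoters of the galectin family. The 18 promoters of the interferon list belonged to 12 genes, of which 10 had a match. A match is a description of letters and not a measured binding site. The capitals mark the match. For LGALS9 it is on the opposite strand and begins 9 bases before the RefSeq start (plus strand shown, chr17:27631169-27631198). That start differs from the first base of the gene given above, and its window (chr17:27630938-27631237) lies inside the gene. For LGALS3BP the match begins 58 bases before the RefSeq start (minus strand shown, chr17:78979948-78980173).
LGALS9: gttgctttggTTTCTATTTCtttgttaagt
LGALS3BP: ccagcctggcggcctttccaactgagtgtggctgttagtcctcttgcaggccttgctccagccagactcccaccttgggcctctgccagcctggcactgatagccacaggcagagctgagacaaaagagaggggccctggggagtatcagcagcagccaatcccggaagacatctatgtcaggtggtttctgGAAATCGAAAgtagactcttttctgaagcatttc

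Expected counts added up to 25310443 to 72003442 per sample, with a median of 44804505. NRP1 was at 3.39 to 61.6% of its control over the 12 knockdown comparisons and passed edgeR's test in 11 of them, the exception being HS578T shNRP1#3 (adjusted p = 0.069). In MDA-MB-231 siNRP1#3 it overlapped its control in TPM (24.8 to 31.3 against 25.6 to 31.6) but not in normalised counts. VIM was at 1311 to 6093 TPM (the deposited level per length) in all samples. CLDN4, of which claudin-low cells have little, stood at 62.6 to 225.9 TPM in MDA-MB-231. CLDN7 was at 10.4 to 61.5 TPM and CLDN3 at 2.87 to 13.4 TPM in that line, while CDH1 was at most 3.33 TPM. In SUM159PT and HS578T, CLDN4 had medians of 0.99 and 1.02 TPM and reached 27.9 and 25.6 TPM. The leukocyte markers CD3E and LYZ were at most 0.27 TPM in any sample, and PTPRC reached 13.1 TPM in SUM159PT. Genes silent in HS578T controls but abundant in MDA-MB-231 controls were present in the HS578T siNRP1#5 samples at 24.8, 18.1 and 13.3% of their MDA-MB-231 level (59 genes). HS578T siNRP1#3 had 2.57 to 7.42% by the same measure, HS578T siNT 0.691 to 2.19%, and the HS578T shRNA groups at most 0.457%. In MDA-MB-231, shNRP1#3 replicate 3 had 2.05% of the HS578T and 2.48% of the SUM159PT marker level, against at most 0.469% in the controls of that line. Applied to the levels of those lines, this would be 28.3% of its LGALS1 and 14.5% of its LGALS9.

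In the control samples, LGALS1 was the most abundant of the 5 genes in every line and LGALS9 the least. LGALS1 averaged 13062 ± 1866 TPM in HS578T (SD, n = 6), against 3457 ± 971 in SUM159PT and 2585 ± 288 in MDA-MB-231. LGALS3BP followed in SUM159PT (619 ± 253 TPM) and MDA-MB-231 (471 ± 51.5 TPM), while in HS578T it was at 197 ± 80.4 TPM and LGALS3 at 224 ± 150 TPM. LGALS8 was at 27.5 ± 8.03 TPM in SUM159PT and 29.4 ± 5.44 TPM in MDA-MB-231, but at 3.02 ± 0.883 TPM in HS578T. LGALS9 averaged 12.1 ± 6.39 TPM in SUM159PT, against 3.56 ± 0.682 TPM in MDA-MB-231 and only 0.257 ± 0.127 TPM in HS578T. HS578T thus had the highest LGALS1 and the lowest LGALS8 and LGALS9 of the 3 lines. For all 3 of those genes its 6 control samples did not overlap those of either other line.

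Between the lines, 13 of 15 tests passed the threshold with edgeR (adjusted p under 0.05 over all genes), where 59.4% (SUM159PT against MDA-MB-231), 70.2% (HS578T against MDA-MB-231) and 63.5% (HS578T against SUM159PT) of all genes did. LGALS9 was 10.4-fold lower in HS578T than in MDA-MB-231 (log2 fold change -3.38 ± 0.39, SE) and 43.8-fold lower than in SUM159PT (-5.45 ± 0.40). LGALS8 was 9.34-fold lower in HS578T than in MDA-MB-231 and 7.73-fold lower than in SUM159PT, and LGALS1 was 8.66-fold and 5.07-fold higher. In SUM159PT, LGALS9 exceeded MDA-MB-231 by 4.21-fold (2.07 ± 0.32). LGALS8 did not pass between SUM159PT and MDA-MB-231 (-0.27, adjusted p = 0.129), and LGALS3 did not between HS578T and SUM159PT (0.02, adjusted p = 0.951). The LGALS3 values depended on the scale: with limma on log2(TPM + 1), HS578T against MDA-MB-231 was 0.16 (adjusted p = 0.398) instead of 0.97, and HS578T against SUM159PT was -0.39 (adjusted p = 0.0346).

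**Figure D1:**
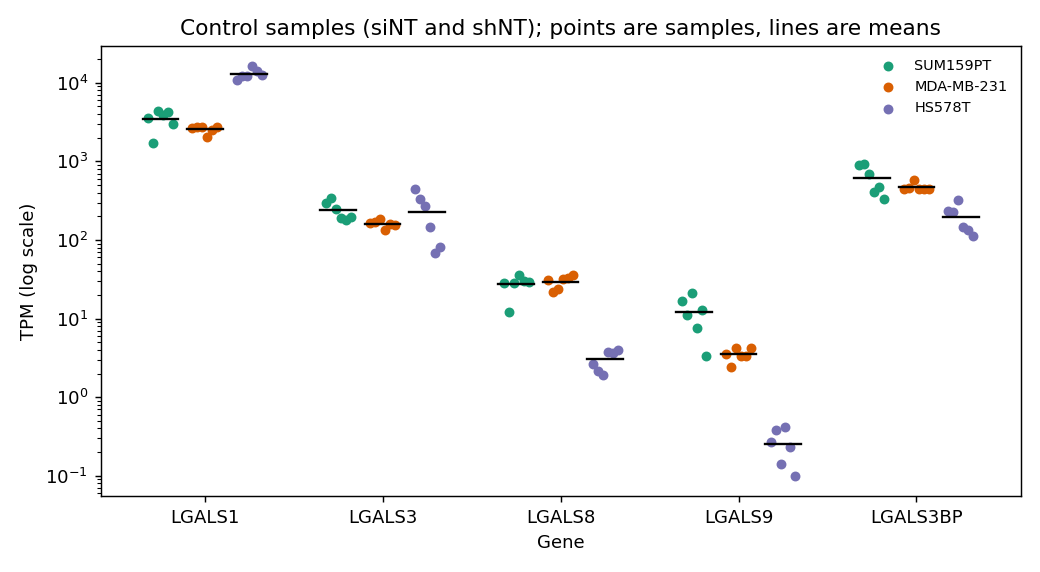
Level of the 5 genes in the siNT and shNT control samples of each cell line, in TPM on a log scale; each point is a sample (6 per line, siNT first) and each line the mean. LGALS8 and LGALS9 lie lowest in HS578T (means 3.02 and 0.257 TPM) and LGALS1 highest (13062 TPM).

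The arm of the experiment also went with the level of 2 of the genes. Between shNT and siNT, 5 of 15 tests passed with edgeR, where 14.4% of all genes passed in SUM159PT, 20.6% did in MDA-MB-231 and 17.9% did in HS578T. LGALS3 was lower in shNT in all 3 lines. In HS578T its siNT samples had 442, 330 and 274 TPM and its shNT samples 145, 68.9 and 82.3 TPM, without overlap (log2 fold change -1.82 ± 0.37, adjusted p = 0.00388). In SUM159PT the change was -0.87 ± 0.20 (adjusted p = 0.012), and in MDA-MB-231 it was -0.41 ± 0.14 (adjusted p = 0.0417). The gap was narrow in MDA-MB-231, with 164, 170 and 187 TPM in siNT and 134, 161 and 153 TPM in shNT, and this call was lost in 5 of its 6 leave-one-out fits (edgeR adjusted p 0.0548 to 0.148 where lost). In SUM159PT it was lost without shNT replicate 3 (adjusted p = 0.0567).

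LGALS3BP was lower in shNT in SUM159PT and HS578T. Its SUM159PT siNT samples had 890, 927 and 682 TPM, all above the 409, 472 and 333 TPM of shNT (-1.25 ± 0.22, adjusted p = 0.00419). In HS578T the siNT samples had 234, 228 and 325 TPM and the shNT samples 147, 133 and 113 TPM, again apart (-1.03 ± 0.30, adjusted p = 0.0247). That HS578T call was lost in 4 of 6 leave-one-out fits. In MDA-MB-231 the value was -0.33 (adjusted p = 0.159). LGALS9 was at 16.9, 11.1 and 21.2 TPM in SUM159PT siNT and at 7.64, 12.7 and 3.32 TPM in shNT, which overlapped (-1.25 ± 0.55, adjusted p = 0.126), and in the other lines its difference was -0.13 and -0.14. LGALS1 and LGALS8 passed in none of the 3 lines with edgeR, each with 1 unadjusted p under 0.05.

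LGALS9 spanned from 0.04 to 70.8 TPM over the 52 samples, the widest range of the 5 genes in fold. By group mean, the first 6 places belonged to the SUM159PT groups, from 45.5 ± 23.2 TPM in siNRP1#3 (SD, n = 3) to 4.43 ± 1.03 TPM in siNRP1#5 (n = 2). The MDA-MB-231 controls came next, shNT with 3.67 ± 0.525 TPM and siNT with 3.44 ± 0.920 TPM. The last place belonged to HS578T shNRP1#3, with 0.065 ± 0.0354 TPM (n = 2). SUM159PT siNRP1#3 stood clear of the next group, as did each of MDA-MB-231 siNT, shNRP1#3 and siNRP1#3 of the group after it. The ranges of the neighbours from SUM159PT siNT down to MDA-MB-231 siNT overlapped, and so did those from MDA-MB-231 shNRP1#5 down to HS578T siNRP1#3, which lay above HS578T shNRP1#3.

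**Figure D2:**
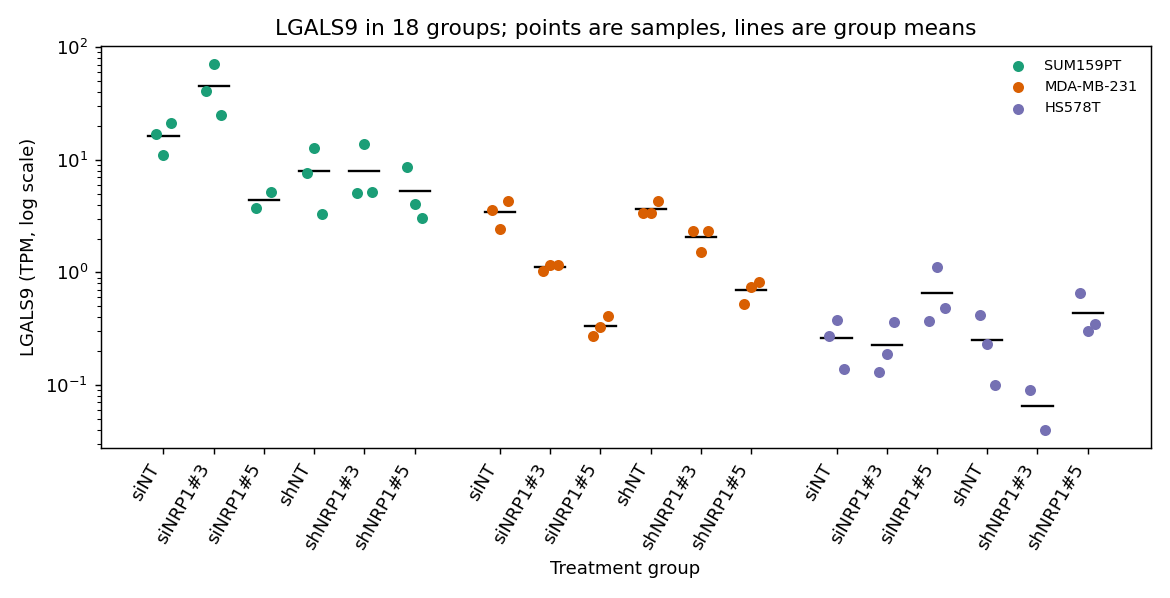
LGALS9 level in TPM on a log scale in each of the 18 groups; each point is a sample and each line the group mean. In MDA-MB-231 every knockdown sample lies below the lowest sample of its control (siNT 2.45 TPM, shNT 3.37 TPM), while SUM159PT siNRP1#3 lies above its control.

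In MDA-MB-231 cells LGALS9 was lower after all 4 knockdown reagents, which is taken here as the pattern that singled the gene out. The siNT samples had 3.59, 2.45 and 4.27 TPM, against 1.04, 1.16 and 1.17 TPM in siNRP1#3 and 0.27, 0.33 and 0.41 TPM in siNRP1#5. The shNT samples had 3.37, 3.37 and 4.28 TPM, against 2.32, 1.52 and 2.35 TPM in shNRP1#3 and 0.52, 0.74 and 0.83 TPM in shNRP1#5. In each of the 4 comparisons all 3 knockdown samples lay below the lowest control. The group means were at 32.7% (siNRP1#3), 9.80% (siNRP1#5), 56.2% (shNRP1#3) and 19.0% (shNRP1#5) of their control, and with edgeR the log2 fold changes were -1.65 ± 0.26, -2.96 ± 0.28, -0.92 ± 0.25 and -2.46 ± 0.26 (SE). On log2(TPM + 1), where the pseudocount weighs on such low levels, limma gave -1.04, -1.71, -0.62 and -1.46. The #5 reagents thus went with lower values than the #3 reagents in both arms, without overlap between them. NRP1 itself, as the total of its transcripts and from edgeR's fold change rather than TPM, was at 61.6, 3.39, 35.9 and 48.3% of control in the same order. By this total, the order of the reagents differed between NRP1 and LGALS9 in the shRNA arm. Since the #3 reagents spare the soluble transcripts, the total does not rank the reagents by their effect on transmembrane NRP1.

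The depth behind these values was modest, at 10 to 202 expected counts of LGALS9 per MDA-MB-231 sample. Near-identical paralogues on the same chromosome, LGALS9B (chr17:20449395-20467539) and LGALS9C (chr17:18476737-18494945), can take part of the reads, so the split between the copies is uncertain. With the counts of the 3 genes summed, the changes were -1.39, -2.58, -0.92 and -1.68. LGALS9B on its own had 0 to 43.4 expected counts in these samples. It was lower after siNRP1#5 (-3.61, at 0.0246 CPM) and shNRP1#5 (-1.51, from 0.494 CPM in shNT to 0.160). These values are a description too, since reads shared with LGALS9 can be given to either gene. LGALS9C, at 0.0756 to 0.398 CPM by group, went the other way there (0.86 after siNRP1#5 and 0.68 after shNRP1#5). It was at -0.05 after siNRP1#3 and -0.99 after shNRP1#3, and passed in none of the 4. In bulk RNA, fewer cells with a transcript and less of it per cell cannot be told apart.

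In SUM159PT cells LGALS9 went in both directions, with a wide spread. The siNRP1#3 samples had 40.6, 70.8 and 25.2 TPM, all above the 16.9, 11.1 and 21.2 TPM of siNT (278% of the control mean, log2 fold change 1.46 ± 0.55, adjusted p = 0.109 with edgeR). The 2 siNRP1#5 samples had 3.7 and 5.15 TPM, both below siNT (27.0% of the control mean, -1.57 ± 0.64, adjusted p = 0.0988). Neither passed the threshold. Both passed with DESeq2 (adjusted p = 0.0475 and 0.0429) and without the filter on low counts (0.000117 and 0.000303), and siNRP1#5 also on log2 TPM with limma (0.0491). The shRNA groups overlapped shNT: shNRP1#3 had 5.12, 13.8 and 5.22 TPM (-0.13, adjusted p = 0.952) and shNRP1#5 had 8.64, 4.08 and 3.02 TPM (-0.72, adjusted p = 0.549).

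In HS578T cells LGALS9 was close to the limit of what these libraries can resolve, at 2 to 46 expected counts per sample. The siNT samples had 0.27, 0.38 and 0.14 TPM and the siNRP1#3 samples 0.13, 0.19 and 0.36 TPM (0.03, adjusted p = 0.989). The siNRP1#5 samples had 0.37, 1.12 and 0.48 TPM, which overlapped siNT in TPM but not in CPM (the depth-normalised counts, 1.62 ± 0.61, adjusted p = 0.0728). The shRNA samples had 0.42, 0.23 and 0.10 TPM in shNT, 0.09 and 0.04 TPM in shNRP1#3 (-1.16, adjusted p = 0.818) and 0.66, 0.30 and 0.35 TPM in shNRP1#5 (0.85, adjusted p = 0.434). MDA-MB-231 and SUM159PT marker genes were also found in these samples. Their shares were applied to the LGALS9 level of those lines as an estimate. It came to 119 to 167% of what was measured in siNRP1#5, 70.4 to 130% in siNRP1#3 and 21.7 to 81.7% in siNT. In the shRNA arm the estimate was 7.13 to 10.4% in shNT, 20.3 to 34.9% in shNRP1#3 and 3.71 to 7.17% in shNRP1#5. With the estimate subtracted, siNRP1#5 against siNT was -5.52 (adjusted p = 0.0616), with the opposite sign. Markers shared by both lines are counted in both shares, so the estimate can overshoot, as it does above 100%, and the part of other RNA was not tested.

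LGALS8, the other tandem-repeat galectin of the 5 genes, gave 4 of the 6 calls among the remaining 4 genes. Over LGALS1, LGALS3, LGALS8 and LGALS3BP, 48 tests were made in the 12 knockdown comparisons. With edgeR, 2 were higher and 4 lower, 5 of the 6 in MDA-MB-231. Of all genes, 25.7% passed in MDA-MB-231 siNRP1#3, 29.4% in siNRP1#5, 3.65% in shNRP1#3 and 20.7% in shNRP1#5. The 5 calls of 16 tests there were 1 of 4 in each siRNA comparison, close to those shares, 0 of 4 in shNRP1#3 and 3 of 4 in shNRP1#5. In SUM159PT none of the 16 passed with edgeR or DESeq2, with 4 unadjusted p under 0.05, where 8.66% (siNRP1#3), 17.9% (siNRP1#5), 1.4% (shNRP1#3) and 5.94% (shNRP1#5) of all genes did. In HS578T 1 of 16 passed, where 4.65% (siNRP1#3), 18.7% (siNRP1#5), 0.0356% (shNRP1#3) and 0.946% (shNRP1#5) of all genes did.

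In MDA-MB-231 the siRNAs moved LGALS8 in opposite directions. The siNT samples had 30.7, 21.8 and 23.7 TPM and the siNRP1#3 samples 39.9, 41.5 and 45.3 TPM, all higher (0.47 ± 0.14, adjusted p = 0.0177). The siNRP1#5 samples had 20.9, 15.6 and 14.0 TPM, all below siNT (-0.72 ± 0.14, adjusted p = 0.000668). In the shRNA arm shNT had 31.5, 33.1 and 35.6 TPM and shNRP1#5 25.4, 25.6 and 27.2 TPM, without overlap (-0.42 ± 0.14, adjusted p = 0.0357), while shNRP1#3 had 30.4, 30.1 and 26.5 TPM (-0.24, adjusted p = 0.41). The shNRP1#5 call was lost in all 6 leave-one-out fits and that of siNRP1#3 in 3 of 6, so both were near the threshold. In SUM159PT the values for the siRNAs had the same signs, 0.62 and -0.57, but neither passed. The latter rested on single samples: it was -1.47 (edgeR adjusted p = 0.00627) without siNRP1#5 replicate 2 and -0.0362 without replicate 3.

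**Figure D3:**
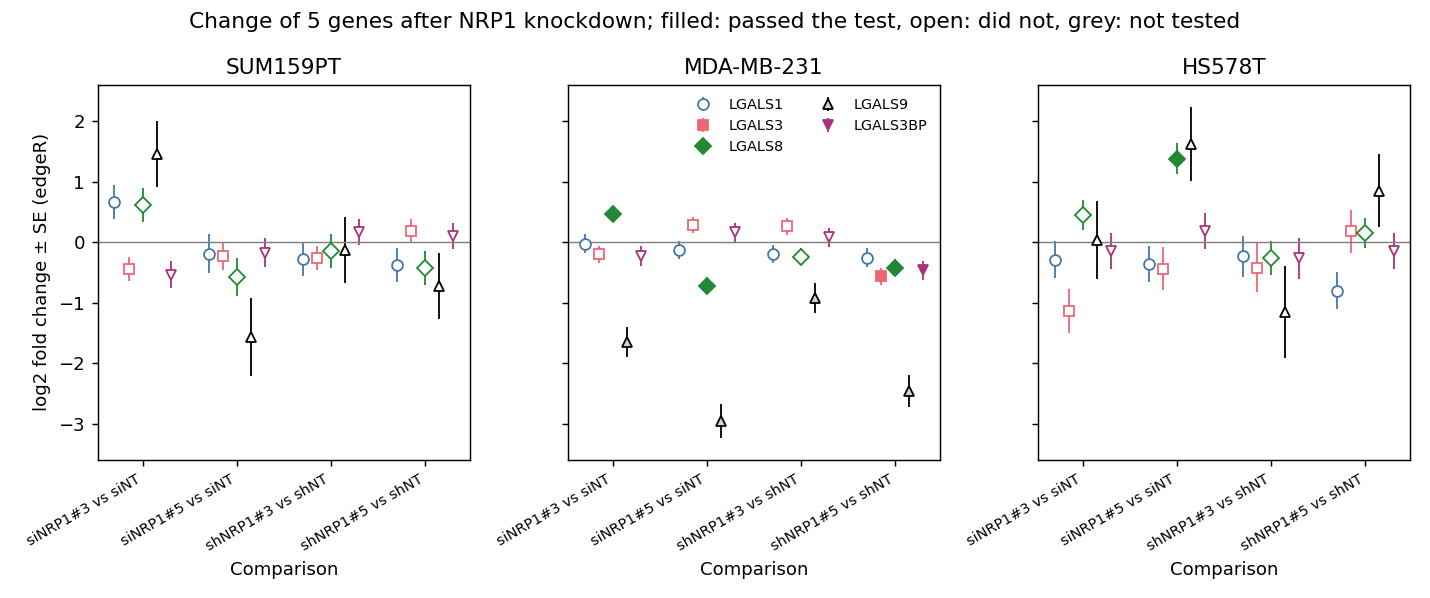
Change of the 5 genes after NRP1 knockdown in each cell line, as log2 fold change with its standard error (edgeR); filled points passed the test, open points did not, and the grey LGALS9 points in MDA-MB-231 are a description with no test. LGALS9 lies lowest in MDA-MB-231 (-2.96 in siNRP1#5), and LGALS8 passed in MDA-MB-231 and in HS578T siNRP1#5.

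In HS578T, LGALS8 rose after siNRP1#5, in the samples where MDA-MB-231 marker genes were also present. Whether those genes came from RNA of that line or were induced in HS578T was not tested. The siNT samples had 2.63, 2.18 and 1.92 TPM and the siNRP1#5 samples 4.37, 7.15 and 5.03 TPM (1.38 ± 0.25, adjusted p = 0.00181 with edgeR). A test over the 3 lines found the responses to siNRP1#5 unequal (adjusted p = 5.19e-06), where 18.2% of all genes passed, and it was the only 1 of the 16 such tests of these 4 genes to pass. On simulated counts this test missed many of the smaller changes, so the other 15 do not show equal responses. For the other reagents 3.42% (siNRP1#3), 0.747% (shNRP1#3) and 3.81% (shNRP1#5) of all genes passed. The measured LGALS8 in the HS578T siNRP1#5 samples was 10.7, 13.4 and 11.5 CPM, and their MDA-MB-231 marker share, taken as a share of RNA, would alone bring 11.5, 8.39 and 6.15 CPM at the control level of that line. Counting SUM159PT too, this estimate came to 59.0 to 115% of the measured value, over 100% being more than was there. With the estimate subtracted, the change was -0.51 (adjusted p = 0.694), and the test over the 3 lines was not repeated on that scale. The other HS578T groups did not pass, with 3.45, 4.85 and 2.99 TPM in siNRP1#3 (0.45, adjusted p = 0.349).

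**Figure D4:**
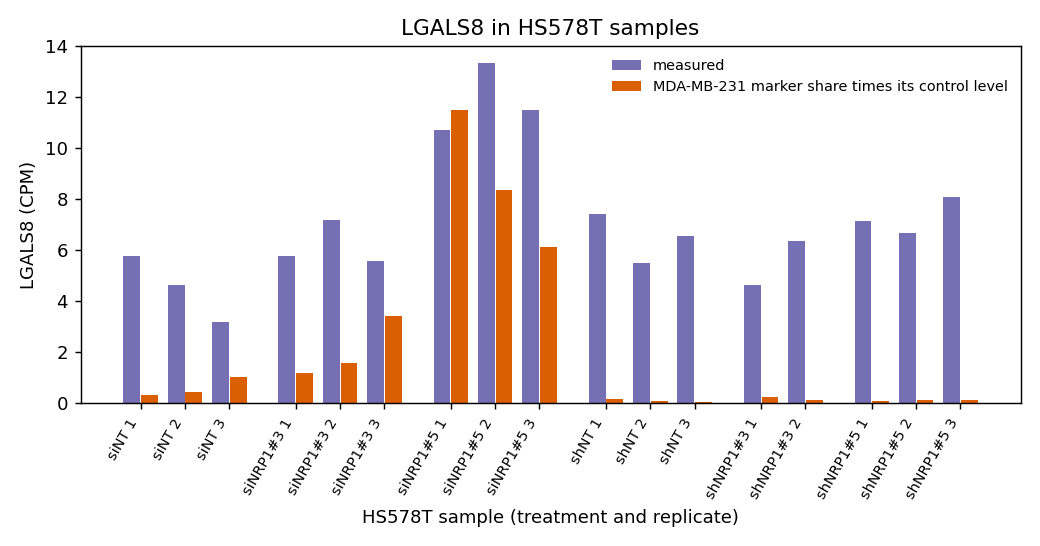
LGALS8 in each HS578T sample in CPM (left bar of each pair), beside the CPM that the sample's MDA-MB-231 marker share would bring at the MDA-MB-231 control level (right bar). In the 3 siNRP1#5 samples the right bars reach 11.5, 8.39 and 6.15 CPM, next to measured values of 10.7, 13.4 and 11.5 CPM.

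LGALS3 and LGALS3BP each fell in 1 knockdown comparison, MDA-MB-231 shNRP1#5. LGALS3 had 134, 161 and 153 TPM in shNT and 114.4, 86.5 and 89.6 TPM in shNRP1#5, without overlap (-0.57 ± 0.14, adjusted p = 0.00803 with edgeR). Without shNRP1#5 replicate 2 its adjusted p was 0.0538. LGALS3BP had 449, 446 and 440 TPM in shNT and 336, 327 and 278 TPM in shNRP1#5, also apart (-0.47 ± 0.16, adjusted p = 0.0474), and its call was lost in all 6 leave-one-out fits. In that comparison LGALS3, LGALS8 and LGALS3BP thus all fell and LGALS9 was lower, whereas LGALS1 did not pass (-0.26, adjusted p = 0.25). In HS578T, LGALS3 had 182, 193 and 128 TPM in siNRP1#3, below all siNT samples, but did not pass (-1.14 ± 0.36, adjusted p = 0.0826), while DESeq2 gave an adjusted p of 0.0394. Those samples had 2.57 to 7.42% of the MDA-MB-231 marker level, and with the corresponding estimate subtracted the value was -1.13.

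LGALS1 passed in none of the 12 knockdown comparisons with edgeR or DESeq2, with 2 unadjusted p under 0.05. Its SUM159PT samples ranged from 1198 to 6302 TPM, those of MDA-MB-231 from 1685 to 2766 TPM and those of HS578T from 7084 to 16184 TPM, so the lines overlapped only between SUM159PT and MDA-MB-231. The value farthest from 0 was -0.80 ± 0.30 in HS578T shNRP1#5 (adjusted p = 0.191), which passed without shNRP1#5 replicate 1 (-1.24, adjusted p = 0.0447). In MDA-MB-231 its values lay between -0.26 and -0.02. There siNRP1#5 passed on log2 TPM with limma (down to -0.40, adjusted p = 0.0209), and shNRP1#5 passed with edgeR on the 2 groups alone (adjusted p = 0.0435). A p that misses the threshold does not show that LGALS1 kept its level.

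The transcripts of LGALS9 were read from the isoform percent, the share of a gene's TPM that RSEM gave to each transcript. Of the 16 transcripts, LGALS9-205 (annotated as a target of nonsense-mediated decay, 10 exons, 225 coding bases) had the highest mean share over the 18 control samples, 32.9%. LGALS9-203 (protein-coding, 11 exons, 1065 coding bases) followed with 19.1%, then the retained-intron transcript LGALS9-215 with 12.8%. LGALS9-208 and LGALS9-216 were given 0 expected counts in all samples. LGALS9-203 holds 2 stretches of coding exon that LGALS9-205 lacks, shown because reads on them can come from the former and not from the latter. These stretches are 71 bases of exon 3 (chr17:27640572-27640642) and the 96 bases of exon 5 (chr17:27643525-27643620), both on the plus strand of GRCh38. Differences outside the coding bases of LGALS9-203 were not examined.
Exon 3 stretch: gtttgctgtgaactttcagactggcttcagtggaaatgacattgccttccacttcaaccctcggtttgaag
Exon 5: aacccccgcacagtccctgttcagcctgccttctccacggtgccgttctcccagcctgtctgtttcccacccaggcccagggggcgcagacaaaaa

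LGALS9-205 took 31.4 ± 8.23% in the SUM159PT controls, 30.8 ± 8.38% in those of MDA-MB-231 and 36.5 ± 36.8% in those of HS578T (SD, n = 6). The exact permutation test, two-sided and with labels permuted within each arm, gave an adjusted p of 0.87 for each of its 3 pairs. LGALS9-203 took 26.4 ± 3.62% in SUM159PT and 30.8 ± 14.8% in MDA-MB-231 but 0% in all 6 HS578T controls. HS578T was below MDA-MB-231 by 30.8 percentage points and below SUM159PT by 26.4 points, both with p = 0.005 by exact permutation, the smallest p this design allows (adjusted p = 0.015 over 6 tests). SUM159PT and MDA-MB-231 differed by -4.43 points (exact permutation, adjusted p = 0.87). The HS578T value rests on few reads: the 6 controls held 53.2 expected counts of LGALS9 in all, 4 to 19.0 per sample. By counts, 0 of 53.2 allows a share of up to 5.64% (3 counts, counting error only). That limit is a share of expected counts and not of TPM. It leaves out the error of RSEM's assignment of reads to transcripts, and LGALS9-203 was listed in some HS578T knockdown samples.

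**Figure D5:**
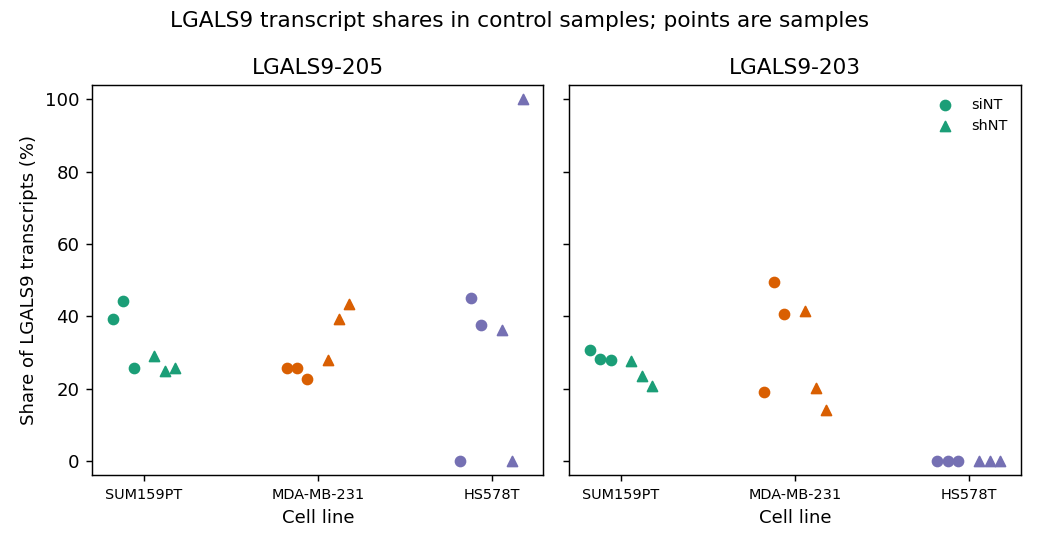
Share of LGALS9 given to LGALS9-205 (left) and LGALS9-203 (right) in the control samples of the 3 cell lines, in percent; each point is a sample, circles siNT and triangles shNT. LGALS9-203 is at 0% in all 6 HS578T samples, and LGALS9-205 spreads there from 0 to 100%.

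In the knockdown samples the shares are a description only. In MDA-MB-231, LGALS9-205 took 24.9 ± 21.6% in siNRP1#3, 47.6 ± 42.3% in siNRP1#5 and 12.0 ± 9.58% in shNRP1#5 (SD, n = 3). Beside them, siNT had 24.7 ± 1.71%, shNT 36.9 ± 7.90% and shNRP1#3 36.8 ± 11.1%. The siRNA knockdown samples spread across their control, whereas the 3 shNRP1#5 samples (1.11 to 19.2%) lay below those of shNT (28.0 to 43.3%). In SUM159PT siNRP1#3, where LGALS9 was most abundant, LGALS9-205 took 45.1 to 47.0% and LGALS9-203 19.4 to 27.3%, against 25.6 to 44.2% and 27.9 to 30.7% in siNT. HS578T siNRP1#5 had 22.0 to 34.7% of LGALS9-203, the transcript listed at 0 in that line's controls. Those are the 3 samples with 13.3 to 24.8% of the MDA-MB-231 markers, and MDA-MB-231 controls gave LGALS9-203 a share of 14.1 to 49.6%. The transcript was also listed in HS578T shNRP1#3 replicate 1 (100%, 7 counts) and shNRP1#5 replicates 1 and 3 (34.0 and 5.59%, 16.2 and 1.88 counts). It was at 0 in replicate 2 of both groups. These shRNA groups had at most 0.457% of the MDA-MB-231 marker level.

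Among the 17 genes of the galectin family, LGALS1, LGALS3, LGALS8 and LGALS9 led in the controls. LGALSL, a galectin-related gene, had a mean of 4.82 TPM and LGALS12, a galectin of fat cells, 1.68 TPM, followed by LGALS9B with 0.176 and LGALS9C with 0.159 TPM. LGALS7B, LGALS4, LGALS7, LGALS2 and CLC were at most 0.0961 TPM, and LGALS13, LGALS14, LGALS16 and GRIFIN were at 0. The filter on low counts left 8 family members in MDA-MB-231 and 6 in each other line. LGALS12 passed in all 4 knockdown comparisons of MDA-MB-231, with signs that differed between reagents. It was at 0.71, 1.75 and 2.76 TPM in siNT, and it fell after siNRP1#3 (-2.93, adjusted p = 7.45e-05) and rose after siNRP1#5 (1.57, adjusted p = 0.00174). From 5.74, 6.85 and 6.18 TPM in shNT it fell after shNRP1#3 (-1.57, adjusted p = 0.0114) and to 0.15, 0.06 and 0.13 TPM after shNRP1#5 (-5.75, adjusted p = 3.29e-07), the last from 3 to 12 counts per sample. In SUM159PT it rose after siNRP1#5 (3.89, adjusted p = 0.0123, all by edgeR).

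Galectins act on glycans, so a list of genes that build glycans was counted next. It held enzymes of N-glycan branches and galactose ends, and also O-glycan genes and sialyltransferases. Of 12 such genes, MDA-MB-231 siNRP1#3 had 5 lower and 0 higher (median log2 fold change -0.42, all genes -0.01), where 25.7% of all genes were called, and SUM159PT siNRP1#3 had 4 of 11 lower and 0 higher (median -0.59, all genes -0.01), where 8.66% were. HS578T siNRP1#5 went the other way, with 4 higher and 1 lower of 12 (median 0.22, 18.7% of all genes called), in the samples with MDA-MB-231 markers, whose part in the result was not tested. MGAT2, which starts the second branch of complex N-glycans, fell after siNRP1#3 in all 3 lines, with log2 fold changes of -1.11 in MDA-MB-231, -1.75 in SUM159PT and -1.67 in HS578T (edgeR adjusted p = 6.32e-06, 0.00582 and 0.0012). MGAT1, which acts just before it, fell after siNRP1#3 in SUM159PT by 1.22 and in MDA-MB-231 by 0.63. With siNRP1#5, 2 of these genes were higher and 3 lower in MDA-MB-231, where 29.4% of all genes were called, and none passed in edgeR's test in SUM159PT (median -0.06). In MDA-MB-231 shNRP1#3 MGAT2 was higher instead (0.51, adjusted p = 0.0288).

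Of 12 glycoproteins that galectins are known to bind, CD44, the hyaluronan receptor, fell in 4 knockdown comparisons. It was lower after siNRP1#3 by 1.03 in SUM159PT and 0.82 in HS578T, and after siNRP1#5 by 1.62 in SUM159PT and 0.98 in MDA-MB-231, on the log2 scale (edgeR adjusted p = 0.0049, 0.0253, 0.000722 and 8.79e-05). The HS578T values of MGAT2 and CD44 after siNRP1#3 came from the samples with 2.57 to 7.42% of the MDA-MB-231 marker level, whose part in them was not tested. Over the list, 3 of 11 genes fell in SUM159PT siNRP1#3 (8.66% of all genes were called) and 2 of 11 in siNRP1#5, near the 17.9% of all genes called there. In MDA-MB-231, 1 rose and 3 fell after siNRP1#5 (29.4% called), and 2 fell after each of siNRP1#3 (25.7%) and shNRP1#5 (20.7%). In HS578T, 1 fell after siNRP1#3 (4.65%) and 1 rose after siNRP1#5 (18.7%). HAVCR2, the gene of the galectin-9 receptor TIM-3, was at 0.0594 TPM on average in the controls. Of 8 genes of the response to damaged endosomes, none passed with edgeR in the SUM159PT knockdown comparisons. Of all genes, 8.66% (siNRP1#3), 17.9% (siNRP1#5), 1.4% (shNRP1#3) and 5.94% (shNRP1#5) passed there. In MDA-MB-231, 1 rose and 2 fell after siNRP1#3 (25.7% of all genes called), and 2 rose and 2 fell after siNRP1#5 (29.4%). There 1 fell after shNRP1#3 (3.65%), and 1 rose and 2 fell after shNRP1#5 (20.7%). In HS578T, 2 rose after siNRP1#5 (18.7%), in the samples with MDA-MB-231 markers, whose part was not tested. In MDA-MB-231 the autophagy receptor gene OPTN fell after shNRP1#5 by 0.88 (adjusted p = 2.71e-05), and TRIM16 was lower after siNRP1#3 (-0.61) and higher after shNRP1#5 (0.61).

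The interferon-stimulated genes of the list moved beside LGALS9 in some comparisons and not in others. Of these 18 genes, 12 had a promoter entry and 10 had the element above. In MDA-MB-231, 10 of 18 fell and 0 rose after shNRP1#5 (median -0.74, all genes 0.02), where 20.7% of all genes were called, with OASL at -1.61 and IFIT3 at -1.24. After siNRP1#3, 8 fell and 2 rose (25.7% of all genes called). After siNRP1#5, where LGALS9 was lowest, 5 fell and 2 rose (median -0.14), near the 29.4% of all genes called there, and after shNRP1#3 the median was -0.08 with 0 edgeR calls, while LGALS9 was at 56.2% of control. In SUM159PT, 11 of 18 fell after siNRP1#5 (17.9% of all genes called) and 4 after siNRP1#3 (8.66%), where LGALS9 was at 278% of control without passing. After shNRP1#5, 4 fell and 0 rose there (median -0.68, 5.94% of all genes called), and shNRP1#3 had 0 edgeR calls (1.4%). In HS578T siNRP1#5, 10 of 17 rose and 2 fell (18.7% of all genes called), in the samples with MDA-MB-231 markers, whose part in the result was not tested. In HS578T shNRP1#5, 2 fell and 0 rose (median -0.47, 0.946% of all genes called), where LGALS9 was at 175% of control without passing. In that line 1 rose and 0 fell after siNRP1#3 (4.65%), and shNRP1#3 had 0 edgeR calls (0.0356%).

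The gene patterns most like LGALS9 were sought among 11014 genes with at least 5 CPM on average, by the correlation over the 18 group means after the mean of each line was subtracted. They were BAZ2B (r = 0.86), FCHO2 (0.85), FHOD3 (0.84), RSF1 (0.81), RICTOR (0.81) and ARNT2 (0.80). Of the other 4 genes, LGALS8 was the most alike (0.66), ahead of LGALS3BP (0.39), LGALS1 (0.35) and LGALS3 (0.32). The group means share controls, libraries and normalisation, and the highest values among so many genes are a description only.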

How the data were processed

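Bulk polyA RNA-seq of 52 samples in 18 groups was used, with groups and replicate numbers from the sample titles. Per the submitters' processing notes the tools were FastQC 0.11.9, Trim Galore 0.6.5, STAR 2.7.2b and RSEM 1.3.3 on GRCh38 (hg38). The authors deposited RSEM expected counts per gene and transcript, which are not scaled for depth. TPM per gene, which add up to a fixed total in each sample, were deposited from the same step. The deposited isoform percent gives the part of a gene's TPM that falls to each transcript. Transcript TPM were not used, and 0 columns had no sample.

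Expected counts were rounded and tested with edgeR 4.0.16 (filterByExpr, TMM, glmQLFit with robust estimation, glmQLFTest) in R 4.3.3. One model per cell line had 6 group means, and 1 model over all samples served the cell-line pairs and the tests between lines. Adjustment was by Benjamini-Hochberg over all genes tested, at a threshold of 0.05, and the scripts were tested on simulated data, where the bounds they had to meet were widened after the first run. Transcript shares were compared with an exact two-sided permutation test within siNT and within shNT, adjusted over 6 tests. CPM are TMM-normalised. Alternatives were DESeq2 1.42.0, its size factors in edgeR, no filter, the 2 groups alone, limma 3.58.1 on log2(TPM + 1) and log2(TPM + 0.1), a replicate block, LGALS9 summed with its paralogues, leave-one-out fits, and an estimate of reads of other cell lines subtracted (marker share times the control level of that line). For the last, markers were genes with at most 0.5 CPM in the controls of the sample's own line and at least 20 CPM in those of the other. A fit without the HS578T siNRP1#5 samples was added after the data had been seen.

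Named were the 5 genes, NRP1, the galectin family, up to 4 genes per other list by control TPM, and the 6 genes most like LGALS9. The genes and lists were chosen with earlier results of these data known. Replicates differed beyond counting noise (chi-square per degree of freedom of at least 11.0), so no replicate was a copy of another of its group. In 6 of 13 comparisons with 3 same-numbered pairs, every pair of samples deviated together (correlation over 0.1), as a hint from the data. Reads carried no molecular identifiers.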

Additional observations from a re-analysis of the deposited data

Results flagged for a closer look

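LGALS8 responded to siNRP1#5 differently in the 3 cell lines (edgeR test of the difference, adjusted p = 5.19e-06), being higher than siNT in the HS578T samples and lower in those of MDA-MB-231. The HS578T samples concerned held 13.3 to 24.8% of the MDA-MB-231 marker level, and with an estimate of that RNA subtracted, whose presence was not tested, their change was -0.51 instead of 1.38.

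For LGALS9, every siNRP1#3 sample of SUM159PT was above, and every one of MDA-MB-231 below, the siNT samples of its line in CPM, a difference of 3.11 between the log2 fold changes. For siNRP1#5, also in CPM, every HS578T sample was above siNT while every SUM159PT and MDA-MB-231 sample was below it. The differences were 3.19 (HS578T against SUM159PT) and 4.58 (HS578T against MDA-MB-231). In TPM the HS578T siNRP1#5 samples overlapped siNT. None of these 3 differences was tested, and in HS578T siNRP1#5 the level estimated from the markers of other lines was 119 to 167% of the LGALS9 measured.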

How the results depend on the processing

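The 6 calls of LGALS1, LGALS3, LGALS8 and LGALS3BP over the knockdown comparisons ranged from 5 to 8 over the alternatives (7 with the replicate block, 5 without the HS578T siNRP1#5 samples) and from 3 to 8 when single samples were left out, with 3 calls without MDA-MB-231 shNRP1#5 replicate 2. The 5 calls between shNT and siNT ranged from 4 to 6 in both (6 with the replicate block), and the 13 between cell lines from 11 to 13 over the alternatives, staying at 13 in each leave-one-out fit. Of 1345 values of single genes under an alternative, 1231 kept direction and side of the threshold. Of the others, 39 lost a call, 19 gained one and 52 changed sign. LGALS9 in the MDA-MB-231 knockdown comparisons had no test, so a bound from the standard error took the place of the threshold there. The remaining 4 values moved beyond that bound, which was applied to no other gene or line. The replicate block changed 2 single calls, neither in a comparison whose samples paired: LGALS3 in HS578T siNRP1#3 (adjusted p = 0.00499, edgeR) and LGALS9 in SUM159PT shNT against siNT (0.0368). The causes of these shifts were not tested. LGALS9 in HS578T is limited by depth.

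Signs changed under limma on log2(TPM + 1) and log2(TPM + 0.1) for LGALS9 in SUM159PT shNRP1#3 (0.0449 and 0.0609), MDA-MB-231 shNT against siNT (0.0910 and 0.12) and HS578T siNRP1#3 (-0.0425 and -0.16), for LGALS3BP in MDA-MB-231 siNRP1#5 (-0.0888 and -0.0890) and HS578T shNRP1#5 (0.0705 and 0.0709), and for LGALS3 between HS578T and SUM159PT (-0.39 and -0.40). The last was -0.0212 without the filter and -0.00357 with the replicate block. With the 3 LGALS9 copies summed, LGALS9 changed sign in shNT against siNT of MDA-MB-231 (0.0441) and HS578T (0.41) and in HS578T siNRP1#3 (-0.23). With the estimate for other lines subtracted, LGALS9 in HS578T was -1.74 in siNRP1#3, -5.52 in siNRP1#5 and 0.47 in shNT against siNT, and LGALS8 in HS578T siNRP1#5 was -0.51.

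Leaving out single samples turned signs over these ranges, from lowest to highest. LGALS1 lay between -0.89 and 0.25 in SUM159PT siNRP1#5, -0.23 and 0.24 in SUM159PT shNT against siNT, -0.0852 and 0.00927 in MDA-MB-231 siNRP1#3, -0.27 and 0.0805 in MDA-MB-231 siNRP1#5, and -0.80 and 0.17 in HS578T shNRP1#3. LGALS3 lay between -0.31 and 0.59 in HS578T shNRP1#5, and -0.20 and 0.14 between HS578T and SUM159PT. LGALS9 lay between -0.92 and 0.33 in SUM159PT shNRP1#3, -0.22 and 0.64 in HS578T siNRP1#3, and, for shNT against siNT, -0.23 and 0.10 in MDA-MB-231 and -0.80 and 0.47 in HS578T. LGALS3BP lay between -0.0253 and 0.21 in SUM159PT shNRP1#5, -0.0874 and 0.34 in MDA-MB-231 siNRP1#5, -0.36 and 0.0857 in HS578T siNRP1#3, -0.81 and 0.13 in HS578T shNRP1#3, and -0.42 and 0.0309 in HS578T shNRP1#5.

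The share of LGALS9-205 changed sign between SUM159PT and MDA-MB-231 with shNT only (-10.3 points) and from expected counts (-1.19), and between HS578T and SUM159PT with siNT only (-8.73). Over leave-one-out fits it lay between -1.57 and 3.31 (SUM159PT minus MDA-MB-231), -7.98 and 17.02 (HS578T minus MDA-MB-231) and -8.61 and 16.4 points (HS578T minus SUM159PT). The lower share of LGALS9-203 in HS578T could not pass with 1 arm alone, at -36.5 and -25.2 points against MDA-MB-231 and -28.9 and -24.0 against SUM159PT (siNT only and shNT only, exact permutation, adjusted p = 0.3).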
